A study of Sus scrofa with 12 samples.

Results

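Toll-like receptors are membrane proteins of innate immune cells and of barrier tissues that bind molecules made by microbes or released by damaged cells. TLR1, TLR2, TLR4, TLR5, TLR6 and TLR10 sit at the cell surface, and TLR3, TLR7, TLR8 and TLR9 read nucleic acids inside endosomes. Binding recruits the adaptors MyD88 or TRIF, which switch on NF-κB and interferon regulatory factors. In the uterus these receptors are known from macrophages, other leukocytes, epithelium and stroma, and they are the first sensors of bacteria that reach the endometrium.

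The 10 genes named TLR1 to TLR10 were taken by symbol from the 20674 genes of the endometrial RNA sequencing table, and all 10 were found. All 10 also passed the filter on low counts, which left 15351 genes for testing. The study fed Landrace × Yorkshire sows of the second or the third parity 1 of 4 diets from breeding over the 114 days of gestation, asking how dietary fiber (DF) and N-carbamylglutamate (NCG, an analog of N-acetylglutamate that promotes arginine synthesis) act on reproduction, and collected endometrium afterwards. L − N was the low-fiber (LF) diet with 3.73% crude fiber and no NCG. L + N was the same diet with 0.05% NCG. H − N was the high-fiber (HF) diet with 7.46% crude fiber and no NCG, and H + N combined 7.46% crude fiber with 0.05% NCG. Each group had 3 libraries of polyadenylated RNA from whole endometrium, with 14369781 to 19309724 counted fragments each. The labels do not say that the libraries of a group came from separate sows, so each p-value measures the spread between these libraries.

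TLR2, TLR7 and TLR9 differed over the 4 groups (3 of 10 members, against 6.96% of all tested genes), and all 3 had their highest mean in L − N. Against L − N, these 3 genes fell by 1.42 to 1.77 on the log2 scale in H − N, where 2.01% of all genes fell, and by 1.32 to 1.64 in H + N, where 1.28% did. TLR2 also fell in L + N, where 0.671% of all genes did. TLR4, the receptor of highest level, had values below L − N in the same direction, while TLR5 overlapped between all 4 groups and TLR3 had its highest mean in L + N. CD14 and LY96, the co-receptors of TLR4, fell in all 3 other groups. Each call was lost when certain single libraries were left out, among them L − N replicate 3 and libraries of the other groups. All but the CD14 calls were also lost without L − N replicate 2.

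L − N replicate 1 stood apart from its partners. On the first principal component of all tested genes (26.67% of the variance of log2 CPM, the counts scaled to a common library size), L − N replicates 2 and 3 lay at −67.24 and −65.5, L − N replicate 1 at −22.61 and the 9 other libraries between 1.056 and 28.17. Its total count of 15797001 lay within the range of the other libraries and it was kept, and results that rest on it are given with and without it. H − N replicate 3 also differed from its partners, with 49.89 on the next component (23.31 and 3.15 in replicates 1 and 2) and 176 CPM of summed neutrophil markers (12.85 and 6.103). No replicate pair agreed within sampling noise.

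Levels were compared between genes only per gene length, as FPKM (fragments scaled to exon length and to the library's total). TLR4 led with 18.62 ± 5.911 FPKM (mean ± SD, n = 12 libraries), followed by TLR3 with 13.37 ± 3.694. TLR1 had 7.618 ± 3.368, TLR2 6.387 ± 3.633 and TLR7 5.465 ± 3.555. TLR5 with 3.813 ± 0.9658, TLR6 with 3.591 ± 1.294 and TLR8 with 3.136 ± 1.972 formed the lower middle, above TLR9 with 1.888 ± 1.048 and TLR10 with 1.854 ± 0.9678. The order was clear for some neighbors and not for others. TLR4 exceeded TLR3 in 11 of 12 libraries, TLR2 exceeded TLR7 in 11 and TLR8 exceeded TLR9 in 11. TLR7 exceeded TLR5 in 5 of 12 libraries, TLR5 exceeded TLR6 in 7 and TLR9 exceeded TLR10 in 5, so those neighbors did not differ beyond their spread.

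The share of TLR3 in the family was lower in every L − N library (16.28%, 12.05% and 11.72% in replicates 1, 2 and 3) than in any library of the other groups. The share of TLR4 had a mean of 30.22% in L − N and of 25.4% to 31.67% in the other groups. TLR3, the sensor of double-stranded RNA, made up 13.35% ± 2.546 (SD, n = 3) of the summed FPKM of the 10 genes in L − N, against 24.57% ± 1.262 in L + N, 24.87% ± 4.779 in H − N and, for H + N, 22.6% ± 0.4094. Its own FPKM was 11.22 ± 1.638, 17.72 ± 4.496, 12.41 ± 2.491 and 12.13 ± 2.643 in these groups. The summed FPKM of the family was 57.29, 100.2 and 104.5 in the L − N libraries and 82.77, 80.94 and 52.27 in L + N. It was 48.5, 51.31 and 49.65 in H − N and 60.79, 61.11 and 39.48 in H + N. L − N replicate 1 lay among the libraries of the other groups, and L − N replicates 2 and 3 lay above all of them. The shares were not tested.

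**Figure D1:**
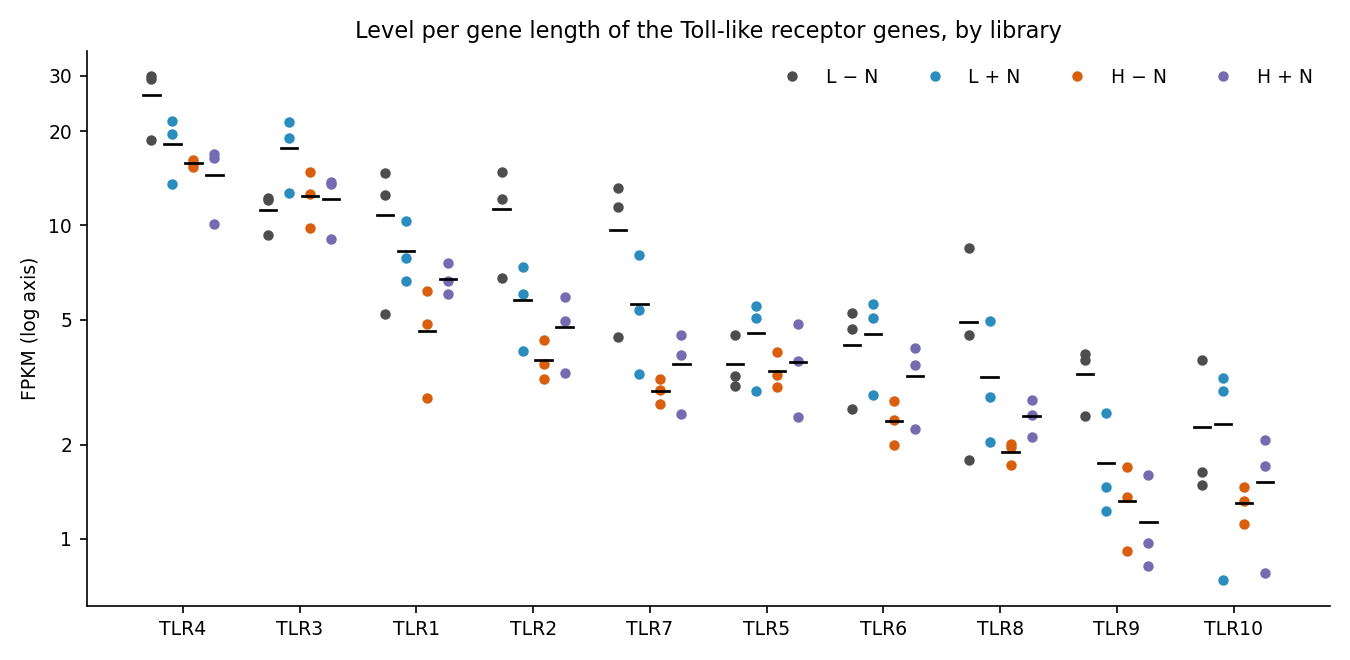
Level per gene length of each Toll-like receptor gene in FPKM (log axis), with 1 point per library and a bar at each group's mean (n = 3). TLR4 had the highest mean in every group, and TLR10 and TLR9 had the lowest means over the 12 libraries.

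TLR4 recognizes bacterial endotoxin (lipopolysaccharide) in a complex with LY96 (MD-2), to which CD14 hands the ligand. It lies on chromosome 1 (258044610 to 258054641, plus strand, Sscrofa11.1, here and for all coordinates). Scaled with edgeR's TMM factors, its level was 67.43, 113.9 and 111.7 CPM in L − N and 65.56, 74.58 and 46.76 in L + N. It was 54.04, 54.86 and 61.38 CPM in H − N and 58.86, 58.12 and 37.65 in H + N. Every HF library lay below every L − N library, whereas 1 of the 3 L + N libraries exceeded L − N replicate 1. The difference over the 4 groups did not pass the test (edgeR quasi-likelihood test, Benjamini-Hochberg adjusted p = 0.0785). In H + N the log2 fold change against L − N was −0.92 ± 0.240 (SE, adjusted p = 0.0412), which passed the adjusted p but not the required fold change beyond 1 on the log2 scale. In H − N it was −0.78 ± 0.239 (edgeR adjusted p = 0.079) and in L + N −0.65 ± 0.238 (adjusted p = 0.107), and neither passed.

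TLR2 binds bacterial lipoproteins and lipoteichoic acid as a partner of TLR1 or TLR6, and lies on chromosome 8 (75416257 to 75428370, minus strand). Its level was 34.25, 64.71 and 78.92 CPM in L − N, 34.6, 29.23 and 19.16 in L + N, 15.54, 21.5 and 19.17 in H − N, and 29.66, 23.9 and 17.66 in H + N. The 6 HF libraries all lay below the lowest L − N library, and L + N overlapped L − N by 1 library at nearly the same level. TLR2 had the smallest adjusted p of the family over the 4 groups (edgeR, 0.0299). The group means were 59.29 ± 22.82 (SD, n = 3), 27.66 ± 7.837, 18.74 ± 3.001 and 23.74 ± 6.004 CPM in the same order. Against L − N it fell by 1.66 ± 0.318 on the log2 scale (SE) in H − N, which is 3.17-fold (edgeR adjusted p = 0.0234). It fell by 1.32 ± 0.314 in H + N, which is 2.50-fold (edgeR adjusted p = 0.0316). In L + N the fall of 1.10 ± 0.312 on the log2 scale was near the threshold (edgeR adjusted p = 0.0488), and 10 of 12 fits that left out 1 library lost it.

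TLR1, TLR6 and TLR10 are relatives whose genes lie next to each other on chromosome 8, all on the minus strand (TLR10 at 30124895 to 30134854, TLR1 at 30147600 to 30155454, TLR6 at 30159744 to 30180650). Their sequences are alike in part, so reads that fit more than 1 of them may have been lost or assigned to either, and their single values are less certain. TLR1 and TLR6 pair with TLR2 to tell apart lipopeptides with different acyl chains. TLR1 had 17.06, 43.14 and 50.64 CPM in L − N, 23.83, 32.37 and 20.73 in L + N, 15.08, 19.97 and 9.656 in H − N, and 24.52, 20.75 and 20.36 in H + N. The 3 H − N libraries overlapped L − N through replicate 1 alone. Its log2 fold change in H − N was −1.31 ± 0.368 (edgeR adjusted p = 0.0629). TLR6 had 12.73, 24.2 and 27.34 CPM in L − N, 23.2, 26.55 and 13.54 in L + N, 12.95, 9.709 and 12.35 in H − N, and 19.84, 16.89 and 11.47 in H + N. L + N and L − N covered nearly the same range for TLR6, and its log2 fold change in H − N was −0.87 ± 0.326 (edgeR adjusted p = 0.132). TLR10, whose ligand is less settled, was the lowest gene in CPM, at 4.266, 4.953 and 11.28 in L − N, 7.959, 9.025 and 2.027 in L + N, 3.627, 4.161 and 3.38 in H − N, and 4.878, 5.704 and 2.33 in H + N. No contrast of TLR10 reached an unadjusted p of 0.05, although the H − N libraries all lay just below those of L − N.

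TLR5, the flagellin receptor, lies on chromosome 10 (19387666 to 19410024, minus strand). Its libraries ranged from 16.93 to 23.24 CPM in L − N, 14.36 to 27.71 in L + N, 16.76 to 19.59 in H − N and 13.18 to 24.12 in H + N. All groups overlapped. It had the largest adjusted p of the family over the 4 groups (edgeR, 0.755), and its log2 fold changes against L − N ran from −0.12 in H − N to 0.20 in L + N. The 95% interval in H − N was −0.71 to 0.46, so a change of the size seen for TLR2 lay outside it.

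**Figure D2:**
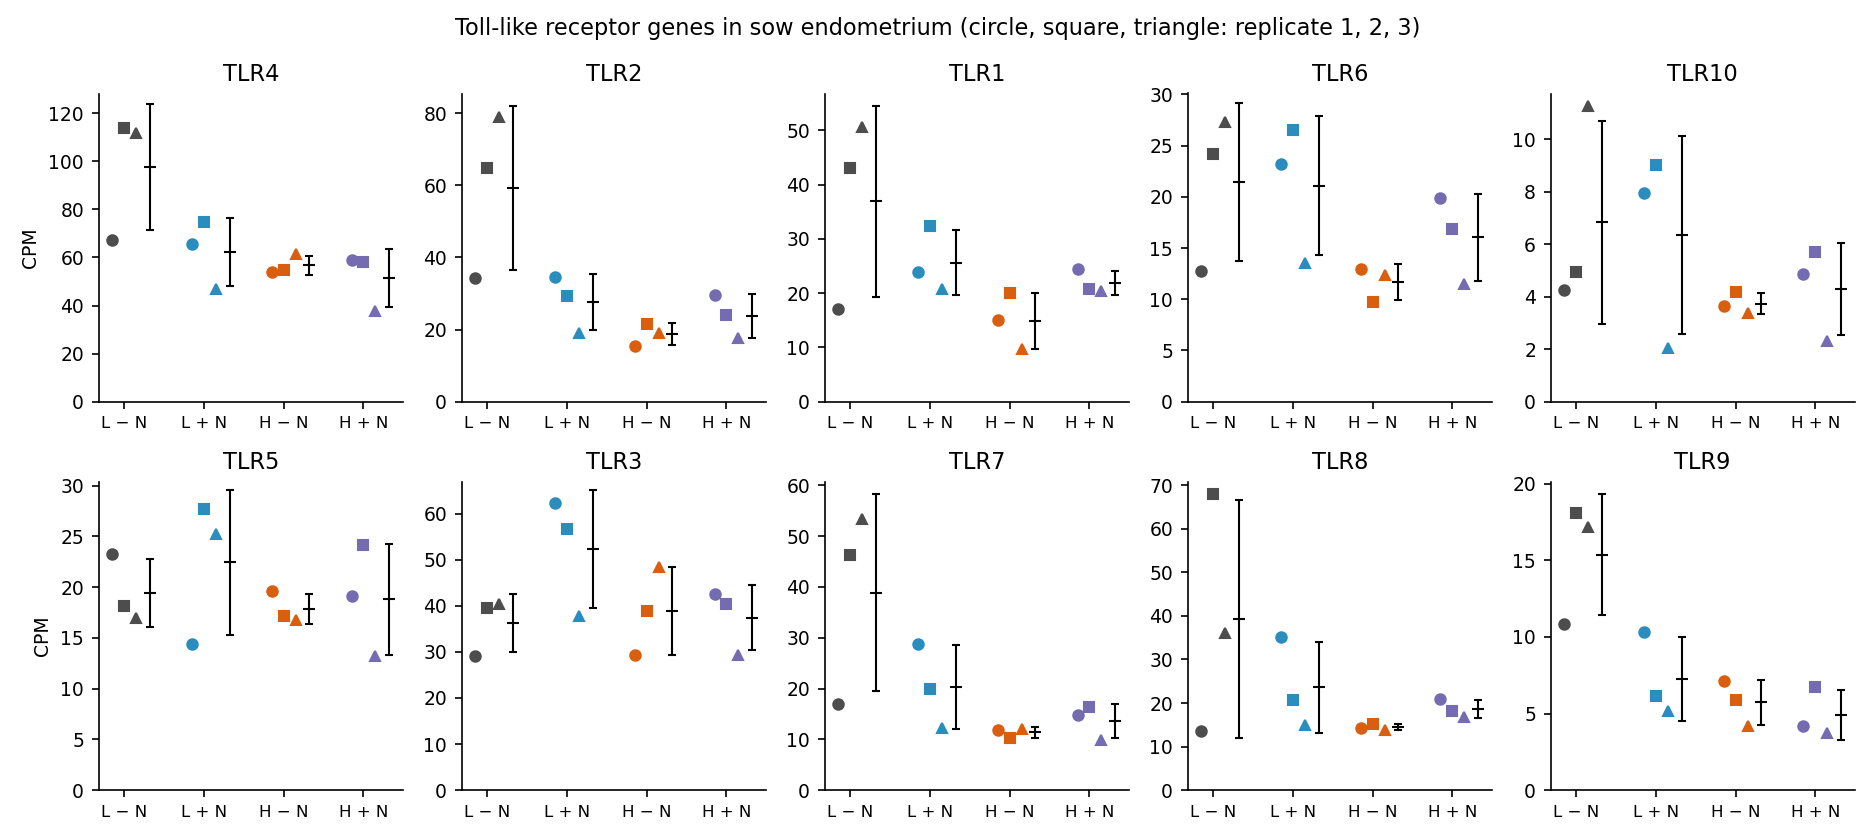
CPM of the 10 Toll-like receptor genes by group, 1 marker per library (circle, square and triangle for replicates 1, 2 and 3) with the mean ± SD beside it (n = 3). For TLR2, TLR4, TLR7 and TLR9 all 6 high-fiber libraries lie below the lowest L − N library, and L − N replicate 1 lies below its 2 partners for every gene except TLR5. Taken singly, each high-fiber group had 12.7% of all tested genes wholly under the L − N range. The share of genes for which both groups did so was not computed.

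TLR3, the endosomal receptor of double-stranded RNA, signals through TRIF and not MyD88, and lies on chromosome 15 (46966262 to 46977774, plus strand). Its level was 29.03, 39.63 and 40.3 CPM in L − N, 62.21, 56.77 and 37.87 in L + N, 29.22, 38.84 and 48.42 in H − N, and 42.52, 40.36 and 29.31 in H + N. L + N had the highest mean but overlapped all other groups. The log2 fold change of L + N against L − N was 0.53 ± 0.238 (edgeR adjusted p = 0.177), and TLR3 was the member whose difference from L − N was above 0 in all 3 groups. The values in H − N and H + N were near 0, at 0.095 and 0.042. The H − N value of TLR3 fell below 0 without H − N replicate 3, and the H + N value without H + N replicate 1 or 2. Its 95% intervals in H − N and H + N were −0.43 to 0.62 and −0.48 to 0.57.

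TLR7 and TLR8 bind single-stranded RNA, and their genes lie together on chromosome X on the plus strand. TLR7 (9573178 to 9576987) lies within the span annotated for TLR8 (9551284 to 9616762), so fragments over both could be assigned to either or dropped. TLR7 had 16.87, 46.27 and 53.4 CPM in L − N, 28.83, 19.85 and 12.3 in L + N, 11.81, 10.19 and 12.07 in H − N, and 14.7, 16.35 and 9.932 in H + N. Both HF groups lay below L − N, but H + N replicate 2 came within 1 CPM of L − N replicate 1. TLR7 differed over the 4 groups by a narrow margin (edgeR adjusted p = 0.0495). It fell by 1.77 ± 0.408 on the log2 scale in H − N, which is 3.42-fold (edgeR adjusted p = 0.0354), and by 1.51 ± 0.404 in H + N, which is 2.84-fold (adjusted p = 0.0452). The value in L + N was −0.93 ± 0.397 (edgeR adjusted p = 0.155).

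TLR8 had 13.63, 67.91 and 36.07 CPM in L − N, the widest spread of the family in that group. It had 35.13, 20.73 and 14.85 CPM in L + N, 14.25, 15.19 and 13.79 in H − N, and 20.96, 18.14 and 16.74 in H + N. L − N replicate 1 was the lowest of all 12 libraries and L − N replicate 2 the highest. The log2 fold changes were −1.44 ± 0.465 in H − N (edgeR adjusted p = 0.0908) and −1.07 ± 0.459 in H + N (adjusted p = 0.156).

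TLR9 recognizes DNA with unmethylated CpG motifs, as bacteria carry it, and lies on chromosome 13 (34353444 to 34370990, minus strand), where its span overlaps TWF2 on the same strand. Its level was 10.82, 18.06 and 17.19 CPM in L − N, 10.34, 6.172 and 5.167 in L + N, 7.099, 5.895 and 4.207 in H − N, and 4.219, 6.736 and 3.74 in H + N. It was the member with every library of the 3 other groups below every L − N library, by less than 1 CPM for the closest pair. Its means were 15.36 ± 3.951 (SD, n = 3), 7.225 ± 2.741, 5.734 ± 1.452 and 4.898 ± 1.609 CPM in that order (edgeR adjusted p over the groups 0.0363). It fell by 1.64 ± 0.348 on the log2 scale in H + N, which is 3.13-fold (edgeR adjusted p = 0.0247), and by 1.42 ± 0.345 in H − N, which is 2.67-fold (adjusted p = 0.0413). In L + N the value was −1.08 ± 0.341 (edgeR adjusted p = 0.0677).

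Across the family, 3 of 10 genes were called over the 4 groups, against 6.96% of all tested genes, and 6 of 10 had an unadjusted p under 0.05, against 27.3%. In H − N against L − N, 3 of 10 fell, against 2.01% of all genes, and the median log2 fold change of the 10 was −1.09, with 0.031 over all genes. In H + N against L − N, 3 of 10 fell, against 1.28%, with a median of −0.84 (0.017 over all genes). In L + N against L − N, 1 of 10 fell, against 0.671%, with a median of −0.59 (−0.023 over all genes). No member rose in these contrasts, where 0.892% of all genes rose in H − N, 3.32% in L + N and 2.29% in H + N. The 3 contrasts share the L − N libraries and so are not independent of each other. Without any test, 5 of 10 members (TLR2, TLR4, TLR7, TLR9 and TLR10) lay wholly below L − N in H − N, against 12.7% of all genes. TLR2, TLR4, TLR7 and TLR9 did so in H + N (12.7% of all genes), and TLR9 did so in L + N (17.2%).

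**Figure D3:**
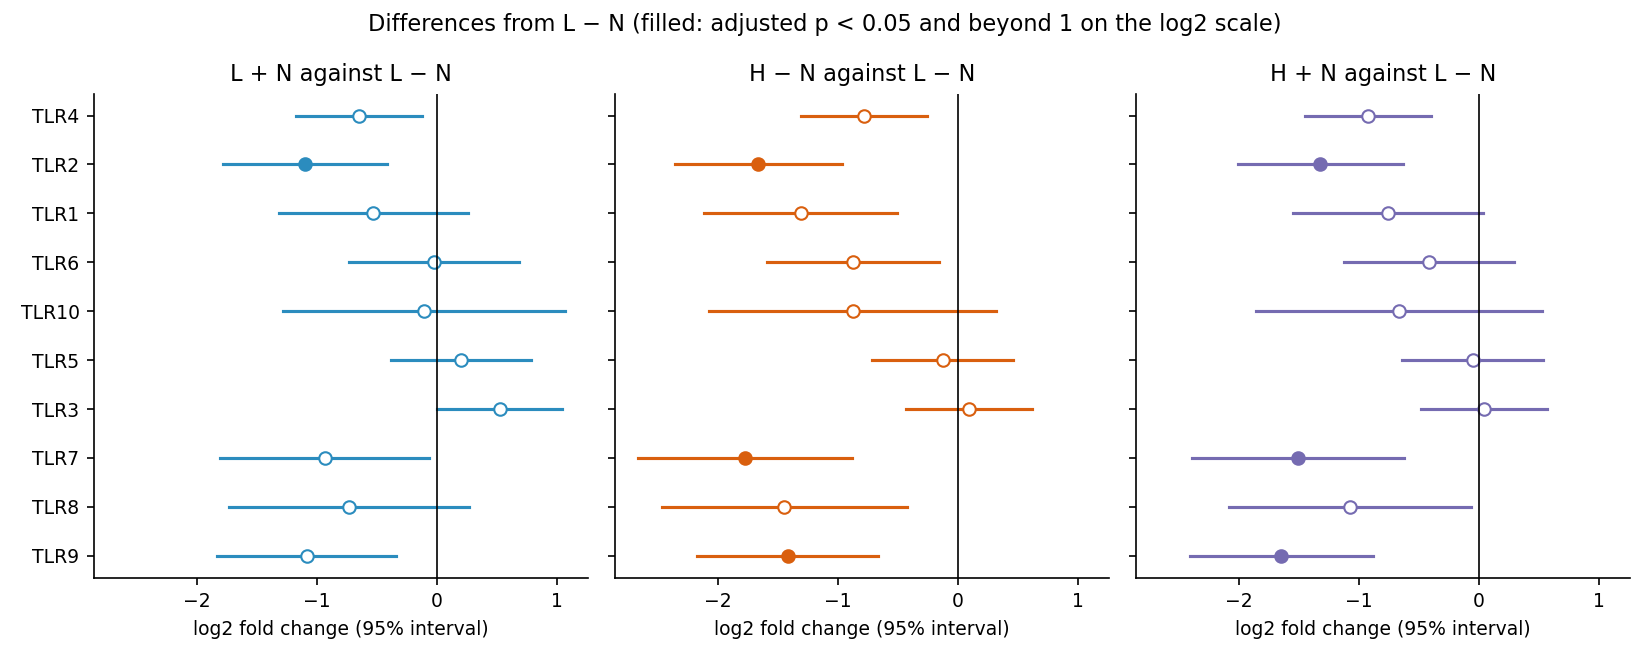
Log2 fold changes against L − N with 95% intervals for the 10 genes in L + N, H − N and H + N, from 1 edgeR fit over 12 libraries, with filled points for those called. TLR2 was called in all 3 contrasts and TLR7 and TLR9 in both HF contrasts, while TLR3 and TLR5 lie near 0 in the HF contrasts.

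The factorial contrasts gave no call in the family. For fiber (6 HF against 6 LF libraries), edgeR called 0 of 10 members, against 0.0261% of all genes, and 7 of 10 had an unadjusted p under 0.05 and a value below 0, against 10.2% of all genes. The log2 fold changes of these were −0.94 ± 0.221 for TLR2 (adjusted p = 0.0816), −1.17 ± 0.285 for TLR7 (0.0882), −0.99 ± 0.243 for TLR9 (0.09), −0.53 ± 0.169 for TLR4 (0.135), −0.77 ± 0.257 for TLR1 (0.146), −0.63 ± 0.229 for TLR6 (0.168) and −0.89 ± 0.325 for TLR8 (0.17), adjusted p from edgeR. The remaining 3 ran from −0.72 for TLR10 to −0.19 for TLR5. DESeq2 on the same counts called TLR7 and TLR9 for fiber, among 290 genes in all.

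For NCG (6 libraries with against 6 without), edgeR called 0 of 10 members, against 1.80% of all genes, DESeq2 also called 0, and 2 had an unadjusted p under 0.05 and a value below 0, against 10.4% of all genes. These were TLR4 at −0.39 ± 0.169 (edgeR adjusted p = 0.186) and TLR9 at −0.66 ± 0.242 (adjusted p = 0.128), and the other 8 lay between −0.38 and 0.24. The fiber by NCG interaction asks whether fiber acted differently with and without NCG. edgeR called 0 of 10 members and 0 genes in all, though 1967 genes had an unadjusted p under 0.05, and DESeq2 called 0 members and 184 genes. Of the members, TLR2 alone had an unadjusted p under 0.05, at 1.44 ± 0.441 (edgeR adjusted p = 0.275), where 7.48% of all genes had such a p and a value above 0, and the other 9 ran from −0.58 to 1.20. With all 12 libraries, no member thus had a fiber by NCG interaction that passed the test. Between the groups other than L − N, TLR1 and TLR8 in H + N lay wholly above H − N (7.82% of all genes did), and TLR1, TLR6 and TLR7 in L + N lay wholly above H − N (14.5%). No member separated H + N from L + N.

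Single libraries decided most of these calls. Without L − N replicate 1, edgeR called 6 members over the 4 groups (TLR1, TLR2, TLR4, TLR7, TLR8 and TLR9), 6 in H − N, 6 in H + N and 4 in L + N. It then also called TLR2, TLR7, TLR8 and TLR9 for fiber and TLR2 for the interaction (adjusted p = 0.0364). Without L − N replicate 2, or without L − N replicate 3, it called 0 members in each of these comparisons, with smallest adjusted p-values of 0.0592 and 0.0989 in H − N and 0.0591 and 0.0962 in H + N. The counts over all genes moved too. Without L − N replicate 1 edgeR called 1732 genes over the 4 groups (1068 with all libraries), 1120 in H − N (446), 911 in L + N (613), 948 in H + N (549), 331 for fiber (4) and 346 for the interaction (0). Without L − N replicate 2 it called 337 over the 4 groups, 122 in H − N, 543 in L + N and 342 in H + N, and without L − N replicate 3 it called 4, 6, 143 and 4. Member calls also went without libraries of the other groups. In H − N the count was 0 without any 1 of its own libraries and 1 (TLR2) without L + N replicate 2 or H + N replicate 1. In H + N it was 0 without H + N replicate 1 or 3, 1 (TLR9) without H + N replicate 2, and 2 when L + N replicate 2 was left out or H − N replicate 1 or 2. In L + N TLR2 remained called when H + N replicate 3 or L − N replicate 1 was left out. Over the 4 groups the count was 0 without L + N replicate 2 and 1 or 2 without any other library outside L − N. Over the 12 fits the log2 fold changes in H − N ran from −1.94 to −1.40 for TLR2, −2.13 to −1.47 for TLR7 and −1.61 to −1.24 for TLR9. TLR8 moved more, to −0.79 in H − N and −0.42 in H + N without L − N replicate 2.

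**Figure D4:**
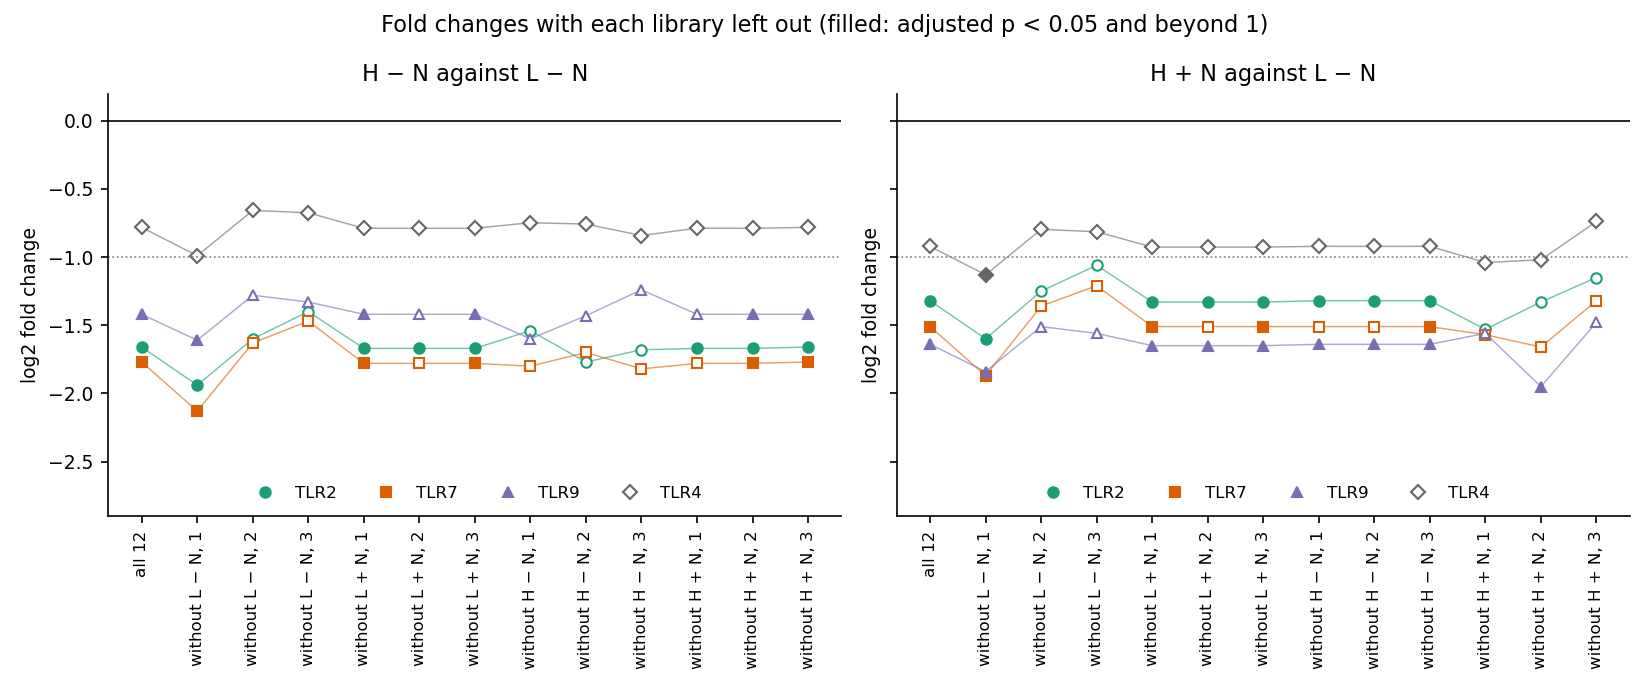
Log2 fold changes of TLR2, TLR4, TLR7 and TLR9 against L − N with all 12 libraries and with each library left out in turn, filled where called. All values stay below 0, and none is called without L − N replicate 2 or 3.

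Of 8 accessory proteins that deliver ligands or fold and transport the receptors, 2 fell in each of the 3 contrasts against L − N, and 2 differed over the 4 groups. Over all tested genes, 2.01% fell in H − N, 0.671% in L + N and 1.28% in H + N, and 6.96% differed over the 4 groups. CD14 captures endotoxin and had 22.67, 40.82 and 49.03 CPM in L − N, 15.29, 14.09 and 12.56 in L + N, 10, 15.19 and 13.04 in H − N, and 13.38, 17.17 and 14.71 in H + N. Every library of the other groups lay below L − N. CD14 fell by 1.56 ± 0.263 on the log2 scale in H − N (edgeR adjusted p = 0.0192), 1.42 ± 0.261 in L + N (0.0115) and 1.31 ± 0.260 in H + N (0.0218). LY96, the endotoxin-binding partner of TLR4, had 51, 70.79 and 67.57 CPM in L − N, 34.46, 29.69 and 26.09 in L + N, 25.34, 34.68 and 26.69 in H − N, and 31.9, 38.79 and 22.87 in H + N. Its groups also did not overlap L − N. It fell by 1.13 ± 0.211, 1.07 ± 0.211 and 1.02 ± 0.210 on the log2 scale in H − N, L + N and H + N (edgeR adjusted p = 0.0229, 0.0139 and 0.0232). The CD14 call was lost in each contrast without L − N replicate 3 (log2 fold changes of −1.32 in H − N, −1.18 in L + N and −1.07 in H + N), and also without H − N replicate 1, L + N replicate 2, or H + N replicate 1 or 3 in the contrast of that group. The LY96 call was lost without L − N replicate 2 or 3 in each contrast (−1.07 to −0.93), and without 2 libraries of the group compared.

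The other 6 accessory genes were not called. CD36, which helps TLR2 with TLR6, ranged from 15.22 to 69.25 CPM in L − N and from 6.552 to 27.32 elsewhere, with log2 fold changes of −1.66 to −1.17 (smallest edgeR adjusted p 0.122). UNC93B1, which carries the nucleic acid receptors to endosomes, had −0.52 to −0.40 (smallest adjusted p 0.279). LBP, the lipopolysaccharide-binding protein, was near 0 CPM in most libraries with 14.69 in H − N replicate 3, and its values of −1.26 to 3.04 were not resolved. CNPY3 and HSP90B1, chaperones that fold the receptors, and HMGB1, a ligand released by damaged cells, had log2 fold changes between −0.40 and 0.28.

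Of the 6 adaptors that couple receptors to kinases, 0 were called in any comparison. MYD88, used by all members but TLR3, had values of −0.34 in H − N, −0.41 in L + N and −0.50 in H + N (edgeR adjusted p = 0.286, 0.183 and 0.112). SARM1, a negative regulator among the adaptors, had −0.75 ± 0.165 in H + N, which passed the adjusted p (edgeR, 0.0264) and not the fold threshold. TIRAP, which links TLR2 and TLR4 to MyD88, had −0.06 to 0.45, and PIK3AP1 −0.55 to −0.15. TICAM1 (TRIF), the adaptor of TLR3, had −0.37 in H + N and −0.58 in L + N, and TICAM2, which bridges TLR4 to it, −0.24 and −0.40. In H − N, TICAM2 had −0.15, and the level of TICAM1 was 12.15 CPM against 12.17 in L − N.

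Among all tested genes, 2.01% fell in H − N, 0.671% in L + N and 1.28% in H + N. Of 15 kinases and ubiquitin ligases of the pathway, 1 fell in each contrast against L − N. This was IRAK2, a kinase recruited to MyD88, with 21.77, 50.04 and 71.73 CPM in L − N, 22.91, 17.12 and 15.17 in L + N, 15.75, 16.57 and 13.79 in H − N, and 23.2, 19.72 and 13.67 in H + N. L + N and H + N overlapped L − N through its replicate 1. IRAK2 fell by 1.64 ± 0.361 on the log2 scale in H − N, 1.38 ± 0.357 in L + N and 1.34 ± 0.357 in H + N (edgeR adjusted p = 0.0319, 0.0358 and 0.0443). Without L − N replicate 3 the values were −1.22, −0.96 and −0.93 in H − N, L + N and H + N, and none was called. The IRAK2 call was lost in 5, 6 and 10 of 12 fits that left out 1 library in these contrasts. The 15 genes together had a median of −0.02 in H − N.

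Of 12 transcription factors, 2 fell in H − N, against 2.01% of all genes, and 0 in the other contrasts. IRF5, which acts downstream of TLR7 and TLR9, fell by 1.24 ± 0.272 on the log2 scale (edgeR adjusted p = 0.0318), from 21.71, 47.03 and 52.73 CPM in L − N to 18.91, 15.47 and 17.1 in H − N. IRF8, a factor of the monocyte lineage, fell by 1.41 ± 0.353 (edgeR adjusted p = 0.0445), from 25.85, 79.63 and 70.26 CPM to 24.77, 22.05 and 19.24. In both genes H − N lay wholly below L − N, closely so for L − N replicate 1. The IRF5 call was lost in 5 of 12 fits that left out 1 library, those without L − N replicate 2 (−1.12) or 3 or any H − N library. The IRF8 call was kept in 2 of 12, those leaving out L − N replicate 1 or L + N replicate 1.

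Of 13 inhibitors, 1 fell in H − N, against 2.01% of all genes, and 0 in L + N or H + N. LY86 (MD-1), the partner of CD180, fell by 1.62 ± 0.385 on the log2 scale (edgeR adjusted p = 0.0386), from 7.449, 21.26 and 23.17 CPM in L − N to 6.477, 6.796 and 3.518 in H − N. This call was lost in 9 of 12 fits that left out 1 library, with a log2 fold change of −1.35 without L − N replicate 3. TNIP1 and TRAFD1, which restrain NF-κB and TRAF signaling, differed over the 4 groups (edgeR adjusted p = 0.0337 and 0.0301) with no fold change beyond the threshold. They were 2 of 13, where 6.96% of all genes differed over the 4 groups. TRAFD1 had 77.04 to 98.33 CPM in L − N and 58.34 to 68.06 in the 9 other libraries.

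Of 24 output genes, cytokines and adhesion molecules that the pathway induces, 19 had enough counts to be tested, and CCL20, IL12A, IL12B, IL23A and IFNB1 did not. Of the 19, 1 fell in H − N, against 2.01% of all genes, and 1 rose in H + N, against 2.29%. IL10, an anti-inflammatory cytokine, fell in H − N by 1.47 ± 0.362 on the log2 scale (edgeR adjusted p = 0.0425), from 2.738, 5.455 and 6.717 to 1.762, 1.318 and 2.276 CPM. Its call was also lost in 9 of 12 such fits, with −1.19 without L − N replicate 3. SELE, an endothelial adhesion molecule, rose in H + N by 2.23 ± 0.542 (edgeR adjusted p = 0.0337), from 3.12, 2.884 and 4.299 to 11.07, 6.682 and 30.66 CPM, with the highest value in replicate 3. The SELE call was lost in 6 of 12 fits, and without H + N replicate 3 the log2 fold change was 1.37. The output genes as a list had a median of 0.19 in H − N, −0.13 in L + N and −0.19 in H + N, and 0 of them were called in L + N.

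Whole endometrium is a mixture, and in bulk RNA fewer cells of a type and less RNA per cell cannot be told apart. The 12 macrophage markers shared the direction of TLR2, TLR7 and TLR9 against L − N, but not that of every member. TLR3 had values above 0 in these contrasts and TLR5 values on both sides of 0. All 12 had log2 fold changes below 0 in each contrast against L − N. In H − N 8 fell (CD68, CD163, CSF1R, C1QA, C1QB, C1QC, SIGLEC1 and ADGRE1), against 2.01% of all genes. In L + N 1 fell (CD163), against 0.671%, and in H + N 3 fell (C1QC, CD163 and CSF1R), against 1.28%. The summed level of the 12 markers was 1407, 3586 and 3706 CPM in L − N, 1705, 1616 and 1210 in L + N, 987.1, 1070 and 731 in H − N, and 1454, 1451 and 1150 in H + N. None of the 12 was at 0 in any library. The sum was lowest in H − N, whereas TLR4 and TLR9 had their lowest means in H + N. These were 51.54 and 4.898 CPM, against 56.76 and 5.734 in H − N. CD163, a scavenger receptor of macrophages, had 186, 690.3 and 692.3 CPM in L − N and 105.8 to 229.8 in the other 9 libraries. L − N replicate 1 again lay far below its partners. The part of the macrophage markers in the receptor differences was not tested.

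**Figure D5:**
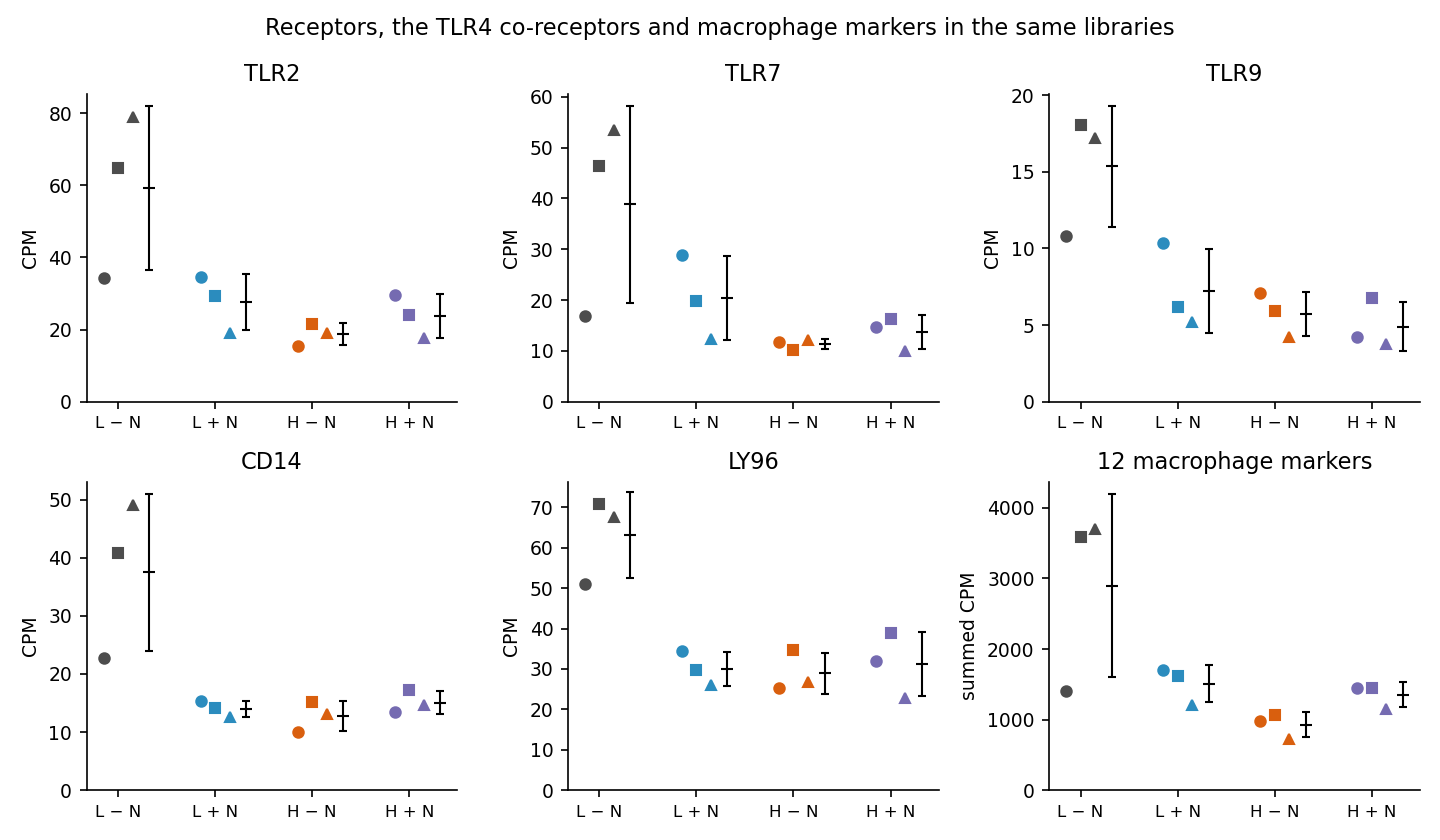
CPM of TLR2, TLR7, TLR9, CD14 and LY96 and the summed CPM of 12 macrophage markers by group, 1 marker per library (circle, square and triangle for replicates 1, 2 and 3), with mean ± SD (n = 3). In all 6 panels L − N replicates 2 and 3 are the highest libraries, and the summed macrophage markers of L − N replicate 1 lie within the range of L + N and H + N.

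For the other immune lists no marker passed the test. Of the 7 neutrophil markers tested and the 6 B cell, 10 T and NK cell and 6 dendritic cell markers in the table, edgeR called 0 in any contrast. Their summed levels over the 12 libraries ran from 5.812 to 176 CPM for neutrophils, 5.172 to 14.07 for B cells, 73.28 to 246.2 for T and NK cells and 24.96 to 51.2 for dendritic cells. The T and NK cell sum was 73.28, 246.2 and 150.7 CPM in L − N, with replicate 1 lowest as for the macrophage markers. NKG7, a marker of cytotoxic lymphocytes, had its highest mean in L − N (33.12 CPM, against 14.38 to 21.73), as did FLT3, a dendritic cell receptor (5.334 against 2.143 to 2.799). Others of these lists had their lowest mean there, among them KLRK1 (6.627 against 10.19 to 13.84) and ZBTB46 (15.68 against 19.02 to 24.21). Of 10 T and NK cell markers, 5 had a log2 fold change below 0 in H − N, 5 in L + N and 2 in H + N. Of 6 dendritic cell markers, 3 did in each contrast against L − N. Of the neutrophil markers, 3 were at 0 in some library. Markers of epithelium, endothelium and stroma were present in every library. No other tissue was measured beside them, so the tissue label itself was not tested. The epithelial list summed to 1060 to 2438 CPM, the endothelial list to 835.2 to 1713 and the stromal list to 11270 to 22540, with no marker at 0. By group, the stromal sum was 11270 to 12290 in L − N and lay wholly above that in H − N (12800 to 20210) and H + N (12990 to 22540). COL1A1, the stromal marker of highest level, weighed most on this sum. Its mean CPM was 4957 (L − N), 10030 (H − N) and 10820 (H + N). The 8 stromal markers did not rise together. Their median log2 fold change was −0.004 for H − N, with 4 below 0, and 0.293 for H + N, with 3 below 0. The epithelial sum was 1060 to 1508 in L − N and wholly above it in L + N (1532 to 1594) and H − N (1623 to 2438). The endothelial sum was 1180 to 1713 in L − N and wholly below it in L + N (835.2 to 1022). The part of these lists in the receptor differences was not tested. In these lists GRHL2 rose in H − N, where 0.892% of all genes rose, and THY1 fell in H − N, where 2.01% fell. PECAM1 fell in L + N (0.671% of all genes). HOXA10 rose in L + N (3.32%), in H + N (2.29%) and with NCG (1.80% called in both directions). CDH1, GRHL2, PECAM1 and HOXA10 differed over the 4 groups, as did 6.96% of all genes. These calls were not followed through the fits that left out 1 library. Of the remaining markers of these 3 lists, 0 were called.

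The members differed in which genes followed them across the 12 libraries. Pearson's r of log2 CPM is given as a description, since the libraries share depth and group differences. TLR2 and TLR7 were alike (r = 0.949), as were TLR4 with TLR7 (0.912) and with TLR2 (0.91), and TLR9 with TLR7 (0.885). TLR5 stood apart, with r between −0.26 and 0.134 to the other 9 members, and TLR3 had its highest r of 0.587 with TLR6. The genes most like each member were RRAGC (0.981) and SDCBP for TLR2, GIMAP1 (0.977), MYO1F and LAT2 for TLR7, PTPN6 (0.973), PEPD and SLC7A7 for TLR9, and PTPRJ (0.973), RDH10 and RIT1 for TLR4. For TLR1 they were NPL (0.963), LOC100624077 and FCGR2B, for TLR8 DOCK8 (0.97), ARHGAP30 and LOC100525572, and for TLR6 GSKIP (0.931), GIT2 and CD80. TLR10 was closest to PPIL3 (0.883), APBB1IP and TNFAIP8, TLR3 to PDCD4 (0.904), LY75 and MPP5, and TLR5 to ANOS1 (0.898), PTCD2 and THBS3. SDCBP, PDCD4, PTPRJ, PTCD2, CD80, DOCK8, SLC7A7 and PPIL3 each overlap a gene on the opposite strand, and whether the counting used strand is not given in the sources used here. Several of the genes are of known leukocyte expression, among them PTPN6 (the phosphatase SHP-1) and DOCK8.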

How the data were processed

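Endometrial polyadenylated RNA of 12 libraries was measured, and groups were read from the title codes (L, LN, H, HN) against the series' design. Per the submitters' processing notes the authors used fastp 0.22.0, HISAT2 2.1.0, HTSeq 0.9.1 and Sscrofa11.1. The methods describe strand-specific libraries, and the strand setting of the counting is not given in the sources used here. The authors deposited raw counts per gene and FPKM values per library. The deposited FPKM equal count, exon length and library total to within 1.91e-05%, and start and end of all 10 members match RefSeq.

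The 15351 genes that passed filterByExpr were fitted together in edgeR 4.0.16 (R 4.3.3, limma 3.58.1) by the quasi-likelihood test with TMM factors (0.941 to 1.07), 1 mean per group, 8 residual degrees of freedom and a biological coefficient of variation of 0.269. Libraries held 14369781 to 19309724 counts in all. The counting error of a gene rests on its own count, which ran over the libraries from 61 to 288 for TLR9 and from 31 to 168 for TLR10. A contrast was called at Benjamini-Hochberg adjusted p < 0.05 and a log2 fold change beyond 1, the test over the 4 groups at adjusted p alone. SE is the standard error of a log2 fold change. Alternatives were RLE factors, no filter, no fold threshold, the 6 libraries compared alone, each library left out, the replicate number as a block, and DESeq2 1.42.0. The code was tested on simulated data.

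The members and lists were chosen with earlier results of these data known. Every member, accessory protein and adaptor is described, with fold changes where the unadjusted p was under 0.05 and ranges otherwise. Of the other pathway lists the called genes are named, at most 4 a list by omnibus p, and for likeness the 3 genes of highest r per member, of which 1 is not reported here. Lists were accessory proteins, adaptors, kinases and ubiquitin ligases, transcription factors, inhibitors, output genes and 8 cell type marker lists. CR2, FCRL1, CLEC4C, IL3RA and LILRA4 had no entry by symbol and MPO did not pass the filter.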

Additional observations from a re-analysis of the deposited data

How the results depend on the processing

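Of the 27 member and 15 pathway fold changes given with an SE, 0 reversed under RLE factors, no filter, the block, DESeq2 or any library left out. They were chosen by small p-values in the same data, so a reversal was unlikely beforehand. Values nearer 0 could change side. In H − N, 9 members had a log2 fold change below 0 with all libraries and 10 without H − N replicate 3. For L + N these numbers were 8 with all libraries and 6 without L − N replicate 3. Of 432 alternative values of 27 member fold changes, 363 kept their side of the thresholds, 52 lost the call and 17 gained it. Only called fold changes could lose a call. These were TLR2, TLR7 and TLR9 in H − N and in H + N, and TLR2 in L + N. Of 12 fits that left out 1 library, 5, 7 and 7 lost the call of TLR2, TLR7 and TLR9 in H − N. In H + N 5, 8 and 4 did so, and in L + N 10 lost that of TLR2. RLE factors changed no count of called members. The replicate number as a block lowered the called members from 3 to 0 over the 4 groups, from 3 to 1 in H − N (TLR2), from 1 to 0 in L + N and from 3 to 1 in H + N (TLR9), and it ended the calls of IRAK2, IRF5, IRF8, LY86, IL10 and SELE but not those of CD14 and LY96. With it the counts over all genes were 477 over the 4 groups, 254 in H − N and 1 for fiber, with 535 for L + N and 397 for H + N. The labels tie no number to an animal, and over 18 same-numbered pairs the correlation of deviations ran from −0.322 to 0.283, with 3 above 0.1, and 3 of 12 libraries were closest to their own number. DESeq2 called 6 members over the 4 groups, 5 in H − N, 2 in L + N and 2 for fiber, and over all genes 3365, 913 in H − N, 988 in H + N, 290 for fiber and 184 for the interaction. With the 6 libraries of each contrast alone, 0 members were called in H − N, L + N and H + N, and 3 genes in H − N, 537 in L + N and 87 in H + N. Without the filter, TLR2 lost its call in L + N, leaving 0. Without the fold threshold all genes called were 809 in H − N, 1474 in L + N, 1223 in H + N, 8 for fiber and 1116 for NCG. Leaving out 1 library gave 0 to 6 members over the 4 groups, in H − N and in H + N, 0 to 4 in L + N and for fiber, 0 to 0 for NCG and 0 to 1 for the interaction. Over all genes it gave 4 to 1732 over the 4 groups, 0 to 1120 in H − N, 143 to 911 in L + N, 1 to 948 in H + N, 0 to 331 for fiber, 157 to 340 for NCG and 0 to 346 for the interaction. The cause of these differences was not tested. With 3 libraries a group and wide spread in L − N, members near the thresholds could not be resolved.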
